A study of Mus musculus with 4 samples.

Results

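The 10 genes described here code for collagens that do not themselves build the banded fibril: the fibril-associated collagens with interrupted triple helices (FACIT) Col12a1, Col14a1 and Col16a1, the type VI chains Col6a1, Col6a2 and Col6a3, the network-forming chains Col8a1, Col8a2 and Col10a1, and the membrane-spanning Col13a1. They were taken by symbol from the 56748 genes of a table of read counts, and 9 of the 10 passed the filter on low counts with which 15167 genes were tested. Bulk RNA was sequenced from lungs carrying metastases of 4T1, a mouse triple-negative breast cancer cell line, in female BALB/cJ mice that were 7 weeks old when 4T1 cells expressing firefly luciferase were injected into a vein. The control group was given saline (2 libraries), and the other group (2 libraries) was given cmLumiOpto/PARPi over the same 3 weeks: the exosome-coated AAV carrying the cmLumiOpto genes under a cfos promoter and bearing an antibody against CD276, its light substrate ViviRen at 2 mg/kg and olaparib, which inhibits PARP, at 50 mg/kg. All 4 libraries therefore came from tumour-bearing lungs, and no tumour-free lung and neither agent alone was analysed here. The sample labels call the material 4T1 cells, but markers of lung epithelium were present in every library.

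Collagens are trimers whose chains wind into a triple helix wherever a glycine recurs in the repeat written Gly-X-Y. Collagens I and III polymerise into fibrils, and the FACIT proteins sit on or beside them, types XII and XIV through short helices joined to large non-helical domains. Type VI collagen is assembled from an alpha1, an alpha2 and an alpha3 chain into beaded microfilaments around cells. Types VIII and X form lattices, type VIII under endothelium and around vessels and type X in hypertrophic cartilage, while type XIII spans the plasma membrane at adhesion sites. In the lung most of these genes are known from fibroblasts and other mesenchymal cells, and type XII is associated with stiff, tensioned or tumour-remodelled stroma.

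The repeat is what the 10 genes share, and they differ in how much of the protein it fills. The stretches that follow are 20 triplets each, read from the start of the longest unbroken Gly-X-Y run in the longest complete coding transcript of GENCODE M21 (GRCm38), written 5′ to 3′ on the coding strand with the glycine codons in capitals. They are given for the FACIT pair and the type VI trio, on which most of the comparisons turn.
Col12a1: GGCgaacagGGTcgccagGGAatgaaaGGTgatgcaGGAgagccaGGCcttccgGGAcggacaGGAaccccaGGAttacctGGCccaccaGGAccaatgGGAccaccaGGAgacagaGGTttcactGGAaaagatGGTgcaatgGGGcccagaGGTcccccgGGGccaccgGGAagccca
Col14a1: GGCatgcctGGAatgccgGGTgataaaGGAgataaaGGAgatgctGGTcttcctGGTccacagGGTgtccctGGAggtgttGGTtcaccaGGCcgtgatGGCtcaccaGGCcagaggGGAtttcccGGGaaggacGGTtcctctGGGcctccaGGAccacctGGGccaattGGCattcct
Col6a1: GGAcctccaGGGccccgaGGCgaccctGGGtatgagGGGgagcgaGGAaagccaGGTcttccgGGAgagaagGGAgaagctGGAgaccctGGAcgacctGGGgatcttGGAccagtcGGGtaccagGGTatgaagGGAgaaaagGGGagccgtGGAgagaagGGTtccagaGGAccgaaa
Col6a2: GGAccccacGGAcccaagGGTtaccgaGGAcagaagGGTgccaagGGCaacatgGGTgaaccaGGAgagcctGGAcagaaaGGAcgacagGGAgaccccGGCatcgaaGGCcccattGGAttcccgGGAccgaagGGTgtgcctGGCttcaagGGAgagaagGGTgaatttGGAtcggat
Col6a3: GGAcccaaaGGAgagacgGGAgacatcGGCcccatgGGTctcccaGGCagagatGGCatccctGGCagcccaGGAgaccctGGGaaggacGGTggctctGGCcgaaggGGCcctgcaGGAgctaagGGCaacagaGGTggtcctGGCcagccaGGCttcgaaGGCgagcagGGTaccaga
In all 5 a glycine codon opens every triplet, and the codons between them differ. The stretch of Col12a1 encodes residues 2805 to 2864 of 3065 and that of Col14a1 residues 1517 to 1576 of 1798, near the carboxyl end of both. Counting runs of at least 6 triplets, Col12a1 and Col14a1 each held 78 triplets in 4 runs, which is 7.63% of the residues of Col12a1 and 13.0% of those of Col14a1. The longest run was 32 triplets in both. Col16a1, the remaining FACIT gene, held 313 triplets in 18 runs, or 59.4% of 1580 residues. The stretches of Col6a1 and Col6a2 begin at residues 256 and 271, and both genes had a longest run of 87 triplets. Col6a3 held 110 triplets, as Col6a2 did, but in a chain of 2677 residues, so that its repeat filled 12.3% against 31.9% in the other two. Col8a1, Col8a2 and Col10a1 had 142, 143 and 144 triplets in 8 runs each, at 57.3% to 63.5% of their residues, and Col13a1 had 174 triplets at 70.6%.

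The genes lie at the following places in GRCm38: Col12a1 at chr9:79598991-79718831 on the minus strand, Col14a1 at chr15:55307750-55520803 and Col16a1 at chr4:130047840-130099283 on the plus strand. Col6a2 (chr10:76595762-76623630) and Col6a1 (chr10:76708792-76726168) are neighbours on the minus strand, 85161 bases apart, while Col6a3 is on another chromosome (chr1:90765923-90843971, minus strand). Col8a1 is at chr16:57624258-57754737 (minus), Col8a2 at chr4:126286793-126314330 (plus), Col10a1 at chr10:34389981-34397085 (plus) and Col13a1 at chr10:61838236-61979108 (minus). The gene bodies of Col12a1, Col14a1, Col6a3 and Col13a1 are overlapped by small genes that had 0 counts in every library. Col10a1 lies within Nt5dc1, on the opposite strand, which had up to 287 counts. The strand setting of the counting is not given in the sources used here, so reads of Col10a1 and of Nt5dc1 may not have been told apart.

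The libraries held 15263375 to 16755228 counts. With this depth the floor of 3 counts was 0.173 to 0.204 CPM (counts on a gene relative to the library total, with TMM factors), which covers counting error only. The spread between libraries of a group was larger than counting error (chi-square per degree of freedom 25.2 for saline and 45.4 for cmLumiOpto/PARPi). Whether the libraries are 1 mouse each is not stated, so the p-values measure the spread between these libraries. With 2 against 2, an exact two-sided permutation test cannot go below 0.333 (6 relabellings), and tests on single genes therefore came from edgeR's quasi-likelihood test across all 15167 genes with Benjamini-Hochberg adjustment.

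Among the 9 genes tested the widest difference was that of Col12a1, which was 3.04-fold lower after cmLumiOpto/PARPi, followed by Col6a3, 2.11-fold lower. The other FACIT and type VI genes of the set (Col14a1, Col16a1, Col6a1 and Col6a2) were 1.26 to 1.37-fold lower, and Col13a1 was higher. None of the 9 genes tested had an adjusted p under 0.05, as none of the 15167 genes did (0 called, 0%; smallest adjusted p 0.138, edgeR's quasi-likelihood test). Col12a1 and Col6a3 did pass with DESeq2 and with edgeR's exact test, which called 1011 and 815 of all genes. At an unadjusted p under 0.05, 3 of the 9 were lower (Col12a1, Col6a3 and Col8a1) and 0 were higher, where 12% of all genes tested were lower and 9.21% higher (1824 and 1397 genes). All 3 belong to the longest of the 5 length groups described below, in which 31.4% of genes were lower at this threshold. Both treated libraries lay below both saline libraries in 6 of the 9, against 27.8% of all genes tested, and above them in 0 of the 9, against 27.4%. Col10a1, which was not tested, also lay below in both. The fitted log2 fold change was negative in 8 and positive in 1. Its median over the 9 genes was −0.46, beside a median of 0.022 over all genes tested. In a bulk sample, fewer cells of a type and less RNA per cell cannot be told apart.

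**Figure D1:**
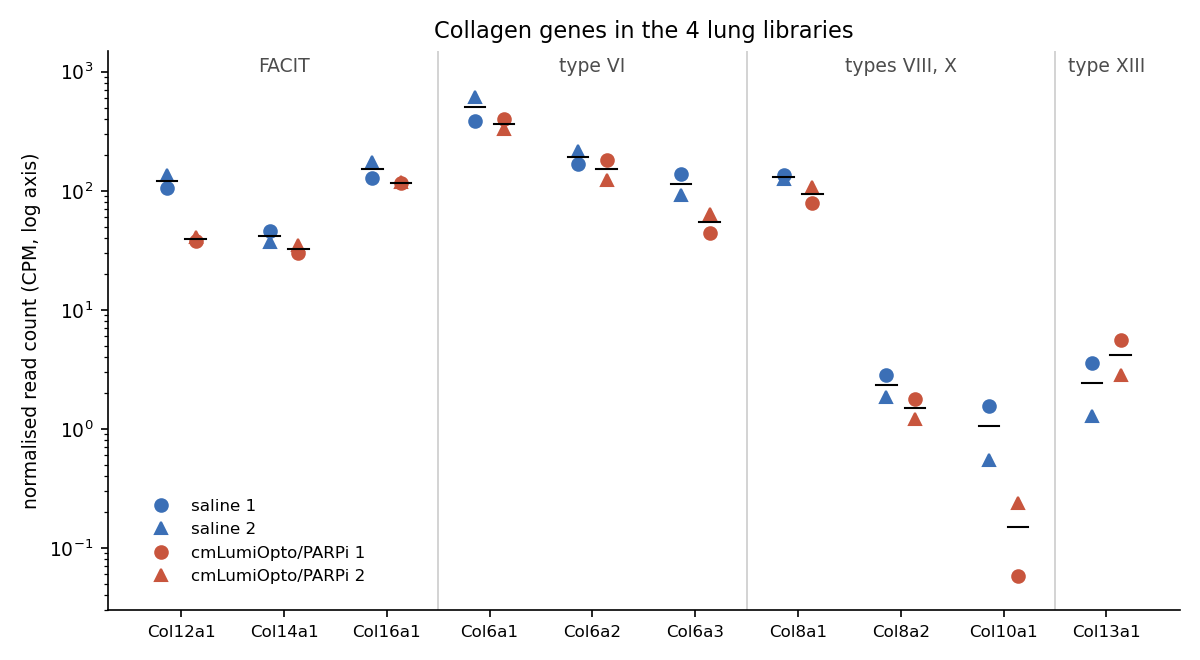
Normalised read counts (CPM, log axis) of the 10 genes in each library, with saline in blue, cmLumiOpto/PARPi in red, replicate 1 as circles, replicate 2 as triangles and the group mean as a bar. The red points of Col12a1 (38.1 and 40.9 CPM) and Col6a3 (44.4 and 64.2 CPM) lie below both blue points, whereas those of Col6a1, Col6a2 and Col13a1 overlap with saline.

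Col12a1 codes for the only chain of type XII collagen, a large FACIT protein that links fibrils to their surroundings. Its counts were 1669 and 1986 in saline and 661 and 679 after cmLumiOpto/PARPi, or 105 and 135 CPM against 38.1 and 40.9 CPM. The lowest saline value was thus well above both treated values, and the treated libraries were nearly equal. The mean went from 120 ± 21.7 CPM (SD, n = 2) to 39.5 ± 1.98 CPM (SD, n = 2), a log2 fold change of −1.60 (SE 0.171, 95% interval −2.03 to −1.18), with an adjusted p of 0.138 from edgeR's quasi-likelihood test. Of all genes tested, 0.508% had a lower log2 fold change. Without saline replicate 1 the log2 fold change was −1.79 and the adjusted p 0.0274, and without any of the other libraries in turn the adjusted p lay at 0.111 or above. With 1 saline library left, the spread comes from the treated libraries alone, and saline is assumed to vary as they do.

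Col14a1, whose product type XIV collagen is built like type XII and regulates early fibril growth, had 46.3 and 37.4 CPM in saline and 30.2 and 35.1 CPM after treatment. The groups did not overlap, but the gap between them (37.4 against 35.1 CPM) was smaller than the spread within either. Its log2 fold change was −0.36 (SE 0.181, 95% interval −0.805 to 0.0892; adjusted p = 0.31, edgeR). The difference between Col12a1 and Col14a1 can be read within each library. Per kb of gene length, Col12a1 stood at 1.04 and 1.67 times Col14a1 in the saline libraries and at 0.58 and 0.535 times in the treated ones. The order of the FACIT pair thus differed between groups: Col12a1 was the higher of the pair in both saline libraries and the lower in both treated libraries. The crossing itself is not firm, since saline replicate 1 was close to equality and the size of the ratio depends on the gene lengths of the table (15228 and 7013 bases). The lower ratio in both treated libraries does not come from dividing by these lengths, which are the same in every library. The ratio was not corrected for the relation of fold change to gene length given below. With that correction the log2 fold changes were −1.21 for Col12a1 and −0.20 for Col14a1. An exact permutation test of the ratio cannot go below 0.333, and no other test of it was run.

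Col16a1, a FACIT gene of fibroblasts and smooth muscle, was expressed at 129 and 174 CPM in saline and 115 and 119 CPM after treatment. The treated libraries were nearly equal, whereas the saline libraries lay farther apart than the group means. The log2 fold change was −0.37 (SE 0.176; adjusted p = 0.285, edgeR).

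Of the type VI chains of the set, Col6a1, Col6a2 and Col6a3, which are needed together to build the protein, only Col6a3 had groups that did not overlap. Col6a1 was the highest of the 10 genes, with 388 and 614 CPM in saline and 397 and 332 CPM after treatment. The lower saline library lay between the treated ones, so the groups overlapped, and the log2 fold change was −0.46 (SE 0.25, 95% interval −1.08 to 0.157; adjusted p = 0.336, edgeR). Col6a2 overlapped in the same way, at 169 and 214 CPM in saline and 181 and 124 CPM after treatment (log2 fold change −0.33, SE 0.227, adjusted p = 0.434, edgeR). Col6a3, the longest chain and the one whose carboxyl fragment is released as endotrophin, had 138 and 91.8 CPM in saline and 44.4 and 64.2 CPM after treatment. Both treated libraries lay under both saline libraries, and the mean went from 115 ± 32.5 to 54.3 ± 14 CPM (SD, n = 2 each). The log2 fold change was −1.08 (SE 0.264, 95% interval −1.73 to −0.428; unadjusted p = 0.00692, adjusted p = 0.142, edgeR), and 1.91% of all genes tested had a lower one.

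Within libraries, and without a correction for gene length, Col6a1 and the neighbouring Col6a2 kept their proportion. Per kb of the gene length given in the table, Col6a1 was 4.37 and 5.45 times Col6a2 in saline and 4.18 and 5.09 times after treatment. The size of this ratio depends on those lengths, 4380 bases for Col6a1 and 8326 for Col6a2. Dividing by them does not alter its comparison between libraries, but the relation of fold change to gene length given below does. With a correction for that relation the log2 fold changes were −0.45 for Col6a1 and −0.12 for Col6a2. Against Col6a3 the ratio varied more widely, with Col6a1 at 7.69 and 18.3 times Col6a3 in saline and at 24.4 and 14.1 times after treatment. These groups overlapped, since saline replicate 2 had both the highest Col6a1 and the lower Col6a3 of its group. The Col6a3 share of the type VI trio per kb was 9.57% and 4.42% in saline and 3.2% and 5.59% after treatment. The uneven change of Col6a3 against Col6a1 thus did not separate the groups, although treated replicate 1 lay outside the saline range on both measures. Of the other type VI chains, Col6a6 had 2.57 and 3.41 CPM in saline and 0.691 and 1.2 CPM after treatment, without overlap. Its log2 fold change was −1.65 (SE 0.504; adjusted p = 0.173, edgeR), and Col6a4 and Col6a5 were too low to test.

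**Figure D2:**
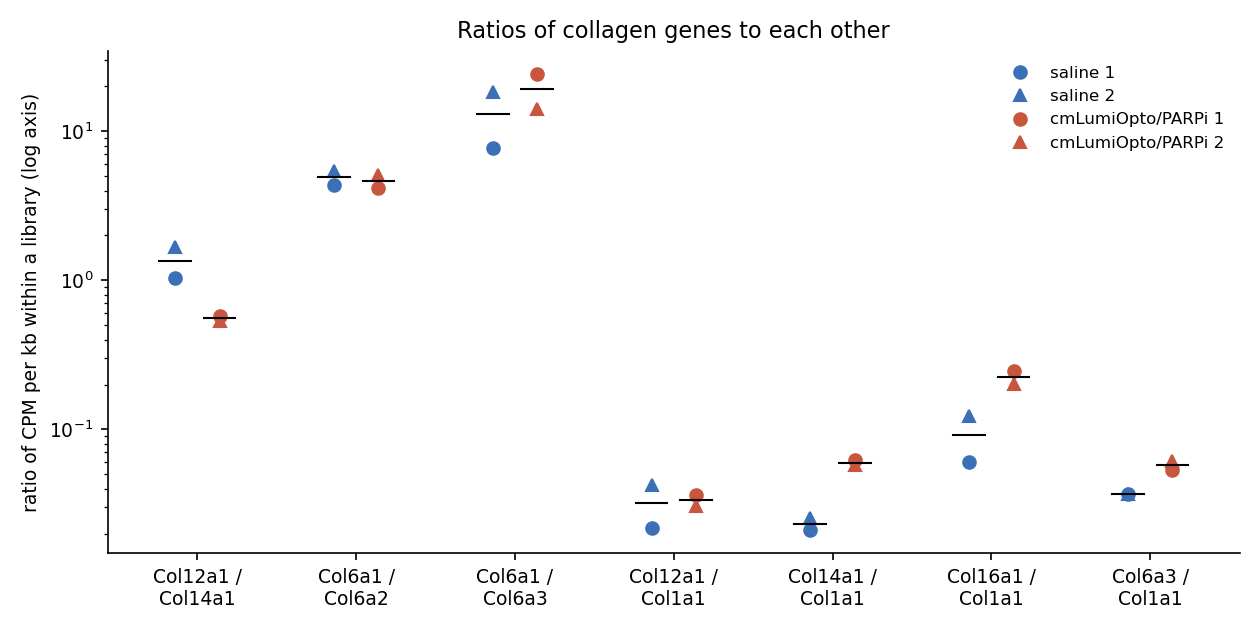
Ratios of CPM per kb between collagen genes within each library (log axis), with saline in blue, cmLumiOpto/PARPi in red, replicate 1 as circles, replicate 2 as triangles and the group mean as a bar. Col12a1 over Col14a1 is lower in both treated libraries (0.58 and 0.535 against 1.04 and 1.67), Col6a1 over Col6a2 lies between 4.18 and 5.45 in all 4, and the ratios of Col14a1, Col16a1 and Col6a3 to Col1a1 are higher in both treated libraries, which for Col6a3 did not hold against Col1a2.

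Among the network-forming chains, Col8a1 was well expressed and the others were near the limit of detection. Col8a1, the alpha1 chain made by vascular and other mesenchymal cells, had 136 and 124 CPM in saline and 79.4 and 107 CPM after treatment. Its groups did not overlap, and the log2 fold change was −0.48 (SE 0.179, 95% interval −0.923 to −0.0394; unadjusted p = 0.0374, adjusted p = 0.213, edgeR). Its partner Col8a2 had only 45 and 27 counts in saline and 31 and 20 after treatment. At this depth a difference of its size (log2 fold change −0.64, SE 0.489; adjusted p = 0.481, edgeR) could not be told from the spread between libraries. Col10a1 had 25 and 8 counts in saline and 1 and 4 after treatment, which did not pass the filter. Summed over libraries this is 33 against 5 counts, a ratio of 7 for equal totals with an exact 95% interval of 2.72 to 23.0 that covers counting error only, and the saline libraries themselves differed by 25 to 8. Col10a1 marks hypertrophic cartilage, and 4 of the 8 chondrocyte markers (Acan, Cnmd, Matn1 and Snorc) had 0 counts in every library. The others had counts in every library, Comp, Ucma and Matn3 1 to 10 and Sox9 671 to 1080. The source of the Col10a1 reads was not tested.

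Col13a1 was the member with the opposite sign. It had 57 and 19 counts in saline and 96 and 47 after treatment, or 3.57 and 1.29 CPM against 5.53 and 2.83 CPM. The groups overlapped, because saline replicate 1 exceeded treated replicate 2. The log2 fold change of 0.77 (SE 0.616, 95% interval −0.747 to 2.29; adjusted p = 0.499, edgeR) covered both directions. It was 1.67 without saline replicate 1, and 0.21 without saline replicate 2 or without treated replicate 1. The related membrane-spanning genes Col17a1 and Col23a1 overlapped as well, with log2 fold changes of −0.77 (adjusted p = 0.50) and 0.55 (adjusted p = 0.579), and Col25a1 had 0 counts.

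Ordered by CPM per kb of the gene length given in the table, Col6a1 stood first in every library (75.7 to 140 CPM per kb). The order depends on those lengths, which were 4380 bases for Col6a1 and 8326 for Col6a2, although their coding sequences have 3078 and 3105 bases. In saline Col6a1 was followed by Col6a2 (20.3 and 25.7) and Col16a1 (19.1 and 25.7), which did not differ beyond their spread on this scale, and by Col8a1 (17.3 and 15.9). Col6a3 (11.5 and 7.67) and Col12a1 (6.87 and 8.89) overlapped, and Col14a1 had 6.61 and 5.33. Col8a2, Col10a1 and Col13a1 were all under 1 CPM per kb in saline. After treatment Col12a1, at 2.5 and 2.68 CPM per kb, stood below Col6a3 (3.72 and 5.37) and Col14a1 (4.31 and 5.01) in both libraries.

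The other collagens were mostly lower as well. Of the 32 other collagen genes of the lists, 22 were tested, and at an unadjusted p under 0.05 11 of them were lower and 1 was higher (12% and 9.21% of all genes tested). Both treated libraries lay below both saline libraries in 13 of the 22 and above them in 1 (27.8% and 27.4% of all genes tested), and the median log2 fold change was −0.645. The fibrillar chains, the scaffold to which FACIT proteins attach, had a median of −1.20 over 10 tested genes, 7 of them lower at an unadjusted p under 0.05. Col1a1, the alpha1 chain of type I collagen, had 2064 and 1377 CPM in saline and 455 and 572 CPM after treatment (log2 fold change −1.74). Col5a1, a nucleator of fibrils, had 369 and 362 against 141 and 151 CPM (log2 fold change −1.32), and Col11a1, a minor fibrillar chain associated with activated stroma, 10.4 and 8.38 against 0.748 and 0.842 CPM (log2 fold change −3.55). Each of these had an adjusted p of 0.138 in edgeR. The basement membrane and anchoring chains were mixed, with 3 of 9 lower and 1 higher at an unadjusted p under 0.05: Col4a1 and Col4a2 had log2 fold changes of −0.55 and −0.58, and Col4a4 one of 1.13.

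Col12a1, Col14a1, Col16a1 and Col6a3 were also set against the chains of type I collagen within each library, a comparison chosen after the values of Col1a1 had been seen. Since Col1a1 was lower by more than most genes, a member that was less so stands higher against it by construction. The ratio of Col12a1 to Col1a1 per kb was 0.0219 and 0.0424 in saline and 0.0361 and 0.0308 after treatment, and the groups overlapped, as they did against Col1a2, the alpha2 chain. The ratio of Col14a1 to Col1a1 was 0.021 and 0.0254 in saline and 0.0622 and 0.0575 after treatment, and that of Col16a1 was 0.0608 and 0.123 against 0.246 and 0.202. Against Col1a2 both were higher in the treated libraries as well, Col14a1 at 0.0657 and 0.0855 against 0.128 and 0.142 and Col16a1 at 0.19 and 0.413 against 0.509 and 0.499. For Col6a3 the outcome depended on the chain. Over Col1a1 it stood at 0.0366 in both saline libraries and at 0.0536 and 0.0616 after treatment, but over Col1a2 at 0.114 and 0.123 against 0.111 and 0.152, which overlap. The 10 genes together made up 12.6% and 17.4% of all collagen counts in saline and 21.4% and 17.8% after treatment, and types I and III 53.3% and 39.4% against 33.7% and 35.2%. Saline replicate 1 had the largest share of types I and III and the smallest share of the 10 genes.

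**Figure D3:**
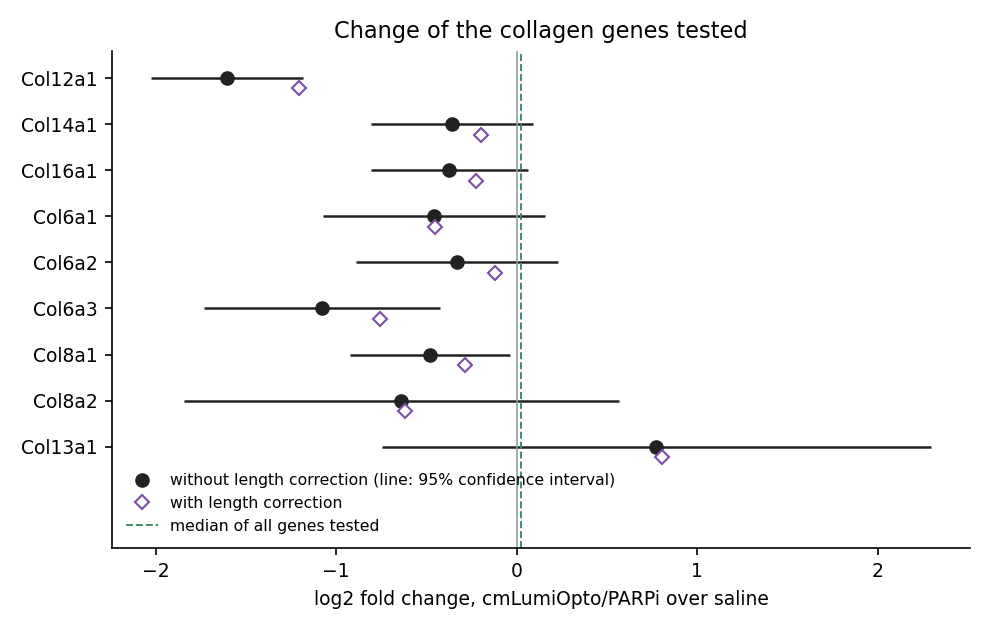
Log2 fold changes of the 9 genes tested (cmLumiOpto/PARPi over saline), as filled circles with 95% confidence intervals from edgeR, and after a correction for gene length, as open diamonds. The intervals of Col12a1, Col6a3 and Col8a1 lie below 0, the others cross it, and the correction moves Col12a1 from −1.60 to −1.21 and Col6a3 from −1.08 to −0.76.

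The other FACIT genes gave no comparison: Col9a1, Col9a2 and Col19a1 had 0 counts in all 4 libraries, and Col9a3, Col20a1 and Col22a1 were too low to test. None of the lists of genes that act on collagens, which were read from the same fit, had a member past an adjusted p of 0.05. Among 18 genes of collagen folding and modification, 1 was lower at an unadjusted p under 0.05, Fkbp10, a prolyl isomerase of the endoplasmic reticulum, with 49.7 and 36.0 CPM in saline and 22.3 and 24.1 CPM after treatment (log2 fold change −0.89, adjusted p = 0.138, edgeR), and the list's median was −0.14. Of 12 genes of procollagen processing and crosslinking 6 were lower and 1 was higher at the same threshold. Of all genes tested, 12% were lower and 9.21% higher at it. Lox, the lysyl oxidase that crosslinks fibrils, had 195 and 144 CPM in saline and 74.0 and 82.6 CPM after treatment (log2 fold change −1.12), Adamts2, which trims the amino end of procollagens, a log2 fold change of −0.88, and Pcolce2, an enhancer of carboxyl-end trimming, one of 0.66 (adjusted p = 0.138, 0.138 and 0.179, edgeR).

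Among 12 collagen receptors 3 were lower and 0 higher at an unadjusted p under 0.05, and in 9 both treated libraries lay below both saline libraries, where all genes tested gave 12% lower by p and 27.8% without overlap. Both shares were larger among long genes, as described below. Antxr2, a surface receptor that takes up type VI collagen, had 228 and 266 CPM in saline and 129 and 162 CPM after treatment (log2 fold change −0.77, adjusted p = 0.138, edgeR). Itga2, the integrin chain of the alpha2beta1 collagen receptor, stood at −0.63 on the log2 scale (adjusted p = 0.177, edgeR). Of 14 genes tested that code for partners at the fibril surface, 5 were lower and 0 higher at the same threshold by p. They included Tnc, which codes for tenascin C, a binding partner of type XII collagen, with 183 and 125 CPM in saline against 56.2 and 80.6 CPM after treatment (log2 fold change −1.17), and Thbs2, which codes for thrombospondin 2, at −1.11 on the same scale (adjusted p = 0.138 for both, edgeR).

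Gene length moved with the differences. Across all genes tested, the log2 fold change correlated with the gene length given in the table (Spearman's rho −0.373 over 15167 genes of the same 4 libraries). When the genes were cut by length into 5 groups of equal size, the shortest group had a median log2 fold change of 0.31 and the longest (7273 bases or more) one of −0.27, and both treated libraries lay below both saline libraries in 9.03% and 53.5% of them. At an unadjusted p under 0.05 (edgeR), 1.52% of the shortest group and 31.4% of the longest were lower. Col12a1 (15228 bases), Col6a3 (11963), Col6a2 (8326) and Col8a1 (7833) belong to this longest group, Col14a1 and Col16a1 to the next (median −0.093), and Col6a1, Col8a2 and Col13a1 to the middle one (median 0.021). After a loess correction for length the log2 fold changes were −1.21 for Col12a1 (adjusted p = 0.277, edgeR), −0.76 for Col6a3 (0.306) and −0.29 for Col8a1, while that of Col6a1 remained at −0.45. The median over the 9 genes was then −0.29, beside 0.016 over all genes tested. The correction also moved the medians of other lists. That of the collagen receptors went from −0.35 to −0.20 and that of the fibrillar chains from −1.20 to −0.91. The median of all other collagen chains went from −0.645 to −0.493. What lies behind the relation to length was not tested.

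**Figure D4:**
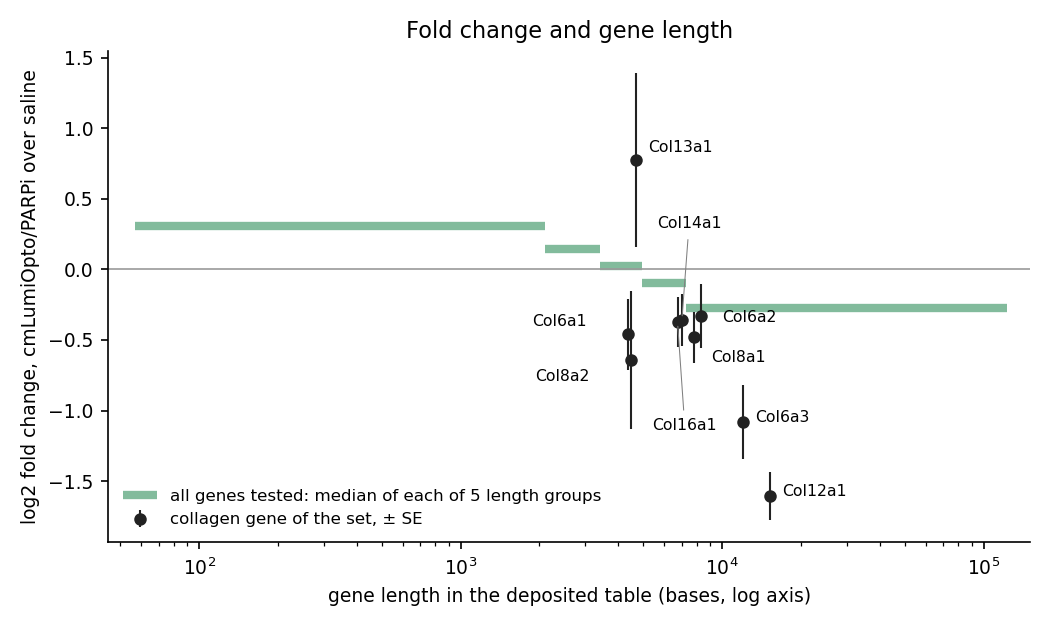
Log2 fold change (cmLumiOpto/PARPi over saline) against gene length in bases (log axis), with the 9 collagen genes as points ± SE from edgeR and the median of each of 5 length groups of all genes tested as a green bar. The bars step down from 0.31 to −0.27 with length, and Col12a1 and Col6a3, the longest members, lie below the bar of their group.

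Markers of the cells that could supply these RNAs did not move together. The summed level of 10 fibroblast markers was 859 and 1024 CPM in saline and 1095 and 781 CPM after treatment, so the groups overlapped. The sum joins opposite directions, with Npnt lower (453 and 665 against 350 and 412 CPM) and Inmt higher (65.0 and 12.7 against 421 and 107 CPM). The median log2 fold change of the 10 markers was 0.61. Within this list Pdgfra (212 and 243 against 132 and 144 CPM) and Pdgfrb (79.6 and 78.6 against 48.4 and 50.1 CPM), receptors that mark mesenchymal cells, were lower along with Npnt and Fap. In contrast Dpt (13.8 and 8.45 against 51.9 and 26.9 CPM) and Tcf21 (3.39 and 0.886 against 21.0 and 5.23 CPM) were higher in both treated libraries than in both saline libraries. So were Inmt, Pi16 and Clec3b, while Mfap5 overlapped. The list was not divided into kinds of fibroblast, so these are directions of single genes. No gene of the list passed the adjusted threshold (smallest adjusted p 0.138, edgeR). Smooth muscle markers summed to 178 and 223 CPM in saline and 194 and 151 CPM after treatment. Within that list Acta2 (126 and 149 against 112 and 94.0 CPM) was lower in both treated libraries, as was Tagln, at 11 to 17 counts. Actg2 was higher, and Myh11, Cnn1 and Des overlapped. Mesothelial markers summed to 136 and 231 against 224 and 215 CPM. Sox9 was the only chondrocyte marker tested, and was lower (64.2 and 73.6 against 38.6 and 48.3 CPM).

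Markers of other cell types differed more. Alveolar type 2 markers summed to 1605 and 424 CPM in saline and 7937 and 2809 CPM after treatment, and airway markers to 1153 and 81.8 against 5690.2 and 3046 CPM. Of the 6 type 2 markers, 5 were higher in both treated libraries, whereas Abca3 was lower in both (147 and 129 against 125 and 94.0 CPM). Markers of 4T1 epithelium overlapped, at 3011 and 3390.2 against 2689.5 and 3849 CPM, as did those of endothelium (347 to 429 against 343 to 593 CPM). The 4T1 list holds general epithelial genes (Epcam, Cdh1 and keratins), so its sum does not measure 4T1 cells apart from lung epithelium. The macrophage sum was lower (647 and 668 against 505 and 479 CPM), mainly in Mrc1 (212 and 396 against 137 and 154 CPM), while Cd68 was higher in both treated libraries (81.0 and 75.8 against 96.5 and 109 CPM) and the median log2 fold change of the 5 markers was 0.14. Alveolar type 1 markers (106 to 246 against 364 to 716 CPM) and B cell markers (1.29 to 4.52 against 7.58 to 10.5 CPM) were higher after treatment, and those of neutrophils and T cells overlapped. The level of normal lung markers thus differed between groups and between the saline libraries, and its part in the collagen differences was not tested.

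**Figure D5:**
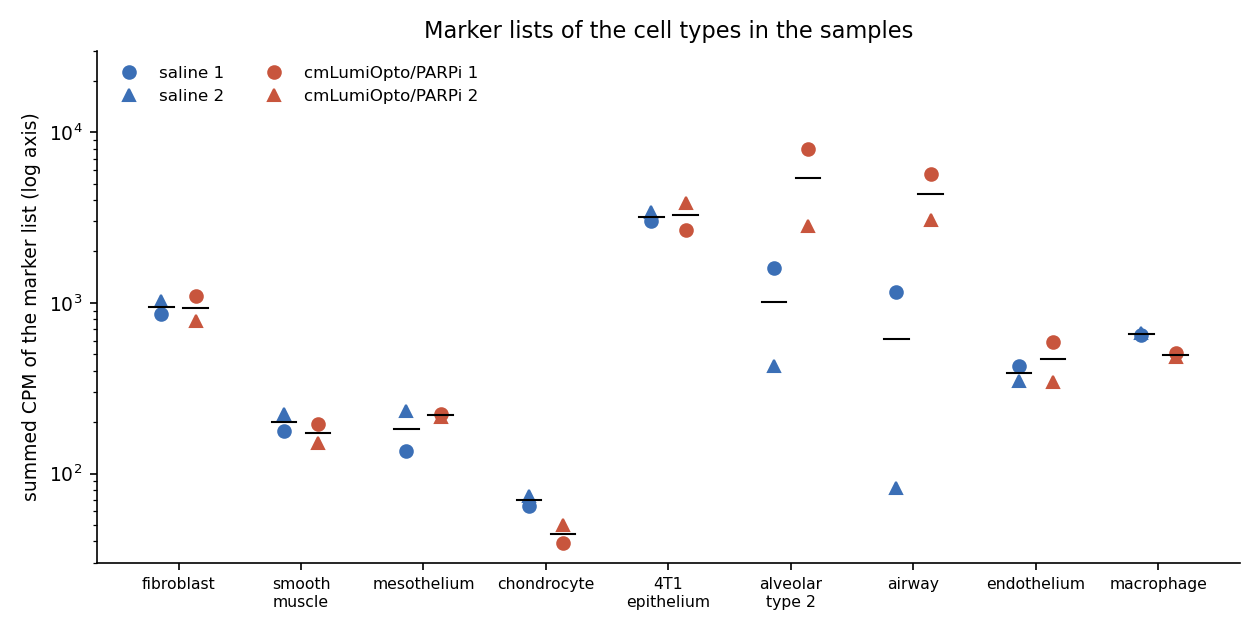
Summed CPM of 9 marker lists in each library (log axis), with saline in blue, cmLumiOpto/PARPi in red, replicate 1 as circles, replicate 2 as triangles and the group mean as a bar. The fibroblast sums overlap between groups, whereas those of alveolar type 2 and airway cells are higher in both treated libraries than in both saline libraries.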

How the data were processed

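RNA of lungs with 4T1 metastases was sequenced after poly-T selection, in 2 saline and 2 cmLumiOpto/PARPi libraries. The authors deposited raw read counts per gene with gene lengths. The paper names HISAT2 and GRCm38, and the submitters' processing notes list HISAT2, HISAT, TopHat2 and mm39. Of 52073 identifiers shared with GENCODE M21, 2.76% had the same position, so coordinates are from GENCODE M21 (GRCm38). Paper and labels differ on control (saline or PBS), material and RNA kit, and the paper's terms are used.

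Counts were tested with edgeR 4.0.16 in R 4.3.3 (quasi-likelihood functions glmQLFit and glmQLFTest after TMM scaling, genes kept by filterByExpr at 10 counts, Benjamini-Hochberg adjustment over all genes tested, threshold 0.05). CPM used TMM factors. No pseudocount was added to printed CPM. Gene length was corrected with a loess offset (span 0.5). DESeq2 1.42.0, edgeR's exact test, other normalizations and filters, the replicate block and leaving out each library were alternatives. The tests were checked on simulated counts. The members and lists were chosen with earlier results of these data known. All 10 members were named, with up to 2 genes per direction and list by smallest p, and marker genes beside summed levels. Col1a1 and then Col1a2 were added as denominators after values were seen. Protein sequences were not used here.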

Additional observations from a re-analysis of the deposited data

How the results depend on the processing

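All 126 log2 fold changes of single genes (9 genes, 14 alternatives) kept their direction. The median over the 9 genes, −0.46 with the main method, moved by less than 0.266 in all 14. That limit is the SD between libraries of a group of the genes' median log2 CPM, not an SD of the fold change. The median was −0.29 with the length correction and −0.59 to −0.42 when 1 library was left out. The counts of calls depended on the method. With the main method, 0 genes and 0 of the 9 collagen genes passed. DESeq2 gave 1011 genes, 2 of them in the set, edgeR's exact test 815 and 2, and the quasi-likelihood test without the filter on low counts 2000 and 2. The 2 were Col12a1 and Col6a3 each time. Leaving out 1 library gave 0 to 31 genes and 0 to 1 in the set, the 1 being Col12a1 without saline replicate 1. Replicate numbers are only shared numbers here, with no stated pairing. Deviations of same-numbered libraries correlated across genes (rho 0.298). Under the replicate block, 1822 genes passed, 2 of them in the set (Col12a1, adjusted p = 0.00271, and Col6a3, adjusted p = 0.0346). With the block and the length correction 920 passed, 1 of them in the set. Upper quartile normalization moved the median of all genes to 0.13 and that of the 9 genes to −0.35. The cause of these differences was not tested. Depth limits Col8a2, Col10a1 and Col13a1, which had under 100 counts in every library.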
